A study of Mus musculus with 8 samples.

Results

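The genes described here encode the semaphorins and their plexin receptors, the ephrins and their Eph receptors, the slits and their Robo receptors, and the netrins with the Unc5 receptors. They were chosen by gene symbol alone, among array probe sets that name a single gene, and each gene was read from its probe set with the highest mean. The choice held 66 genes on 70 probe sets, of 19937 genes and 34760 probe sets in all, with 35 ligands, 30 receptors and Unc5cl. Unc5cl met the symbol rule because its name begins like those of the Unc5 receptors, but it encodes a cytoplasmic relative of them and not a netrin receptor, so it is kept apart below.

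Guidance genes were first studied for steering axons, and each family works by contact or short-range diffusion: a ligand on or released from one cell binds a receptor on its neighbour and changes adhesion and the actin cytoskeleton. Ephrins stay on the membrane and can signal back into the cell that carries them, slits and netrins are secreted, and semaphorins exist in both forms. In the mammary gland, netrin 1 with neogenin holds the cap cells of the end bud against the luminal cells beneath, slits acting through Robo1 restrain branching and basal cell division, and Ephb4 with ephrin-B2 takes part in the order of the epithelium and in the growth of vessels.

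The study asked how an early pregnancy changes the mammary gland. Total mammary cells were compared on 8 arrays, 4 of parous and 4 of age-matched virgin FVB/NHanHsd mice. Each array held RNA of the fourth mammary glands pooled from 5 mice. Parous mice were mated at 42 days of age and nursed for 21 days, after which involution ran for 28 days by the sample labels and 40 days by the methods, and virgin mice were left unmated until the same age. Lymph nodes were removed before digestion, fat cells were spun off, red cells lysed and fibroblasts reduced by attachment to plastic, but the suspensions were not sorted. No estrous stage of the pools was stated, and the methods give the pooling of at least 5 mice as the control for the estrous cycle. The pools are the replicates, so that the spread below is that between pools.

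Levels are log2 values of robust multi-array average (RMA) normalisation, on which a difference of 1 is a doubling, and levels of different probe sets are not set against each other. Array medians lay between 6.29 and 6.43. The suspensions held the defining transcripts of luminal cells (Krt8 averaged 13.11 in parous and 13.28 in virgin arrays) and of basal cells (Krt14 averaged 10.81 in parous and 11.56 in virgin arrays). They also held those of vessels, with Cdh5 at 12.04 in parous and 11.91 in virgin arrays, so that the label of epithelial cells does not describe the whole suspension. Virgin replicates 2 and 4 stood apart from the other arrays, at -32.70 and -66.77 on the first principal component, while parous arrays lay between 12.71 and 25.76 and the other virgin arrays at 9.35 and 11.36. The mean level of 24 of 25 proliferation genes (0 passed the criteria given next), each taken relative to its average over all arrays, was -0.79 to -0.42 in parous arrays and was 1.11 and 1.58 in virgin replicates 2 and 4, against -0.22 in each of virgin replicates 1 and 3. Virgin replicates 1 and 3 thus also lay above every parous array. Of these 24 genes 19 were at an unadjusted p under 0.05 in limma, all lower in parous arrays, against 11.4% of all probe sets. Their median log2 fold change (parous minus virgin) was -1.185. Results that rest on virgin replicates 2 and 4 are given with and without them.

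Of the 66 guidance genes 0 passed the criteria in limma, an adjusted p under 0.05 together with a fold change over 1.5 and a mean log2 value over 2, against 0.397% of all probe sets. Limma's test against a fold change of 1.5 (treat) called 0 as well. At an unadjusted p under 0.05, 13 of the 66 (19.7%) were counted, 5 higher and 8 lower in parous arrays, against 11.4% of all probe sets, of which 5.26% were higher and 6.14% lower. Of the 66, 51 had a mean above the median of all values in at least 1 group, and the other 15 were dim and held none of the 13. All 13 were among the 51 genes (25.5%), against 19.7% of all genes above that level. A gene could reach that level through its higher group alone, as Epha3, Ephb1, Robo2 and Efna3 did. The share among the 51 therefore follows in part from the differences counted, and is description only. The parous and virgin groups lay clear of each other for 10 of the 66 (15.2%), 5 higher and 5 lower. This compares with 7.6% of all probe sets (3.54% higher and 4.06% lower) and 9.56% of all genes. All 10 were among the 51 genes above that level (19.6%, with the same limit), against 13.2% of all genes above it. Of the 66, 6 had both an unadjusted p under 0.05 and a fold change over 1.5 (Slit3, Sema3d, Epha3 and Unc5cl higher, Robo1 and Epha7 lower), against 2.96% of all probe sets. The 95% interval of the difference lay within a 1.5-fold change either way for 45 of the 66 (68.2%), against 80.8% of all genes.

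Of 35 ligands, 25 (71.4%) had a log2 fold change above 0 (parous minus virgin) and 10 below, with a median of 0.08. Of all genes 50.7% were above 0. Of 30 receptors, 14 were above 0 and 16 below, with a median of -0.0037, and the same median over all genes was 0.0024. At an unadjusted p under 0.05 in limma there were 8 receptors (26.7%), 7 of them lower in parous arrays. There were 4 such ligands (11.4%), 3 of them higher. The share was 11.4% of all probe sets and 14% of all genes, so that of the ligands was no larger. The mean centred level of the receptors was -0.059 to -0.026 in parous arrays and 0.0021 to 0.081 in virgin arrays, which did not overlap, although that of virgin replicates 3 and 4 (0.005 and 0.0021) was close to that of the parous arrays. The hormone-sensing luminal list (7 of 10 measured, 0 of them below the median level) was also clear between the groups, at -0.54 to -0.21 in parous and 0.10 to 0.52 in virgin arrays. Of its 7 markers 1, Wnt4, passed the criteria as lower. At an unadjusted p under 0.05 in limma, 5 of the 7 were lower and 1 was higher. The proliferation list was clear too, at -0.79 to -0.42 in parous and -0.22 to 1.58 in virgin arrays. So was the basal and myoepithelial list, at -0.25 to -0.08 in parous and 0.0062 to 0.27 in virgin arrays. The part of these lists in the result for the receptors was not tested. The mean centred level of the ligands overlapped between the groups, from -0.0015 to 0.099 in parous and from -0.21 to 0.074 in virgin arrays, with virgin replicate 4 the lowest. Without virgin replicates 2 and 4 the ligand median was -0.015, on the other side of 0, and the receptor median was -0.043. The difference between ligands and receptors was not tested. Since RNA came from whole suspensions, fewer cells of a type and less RNA per cell cannot be told apart in any of these values.

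**Figure D1:**
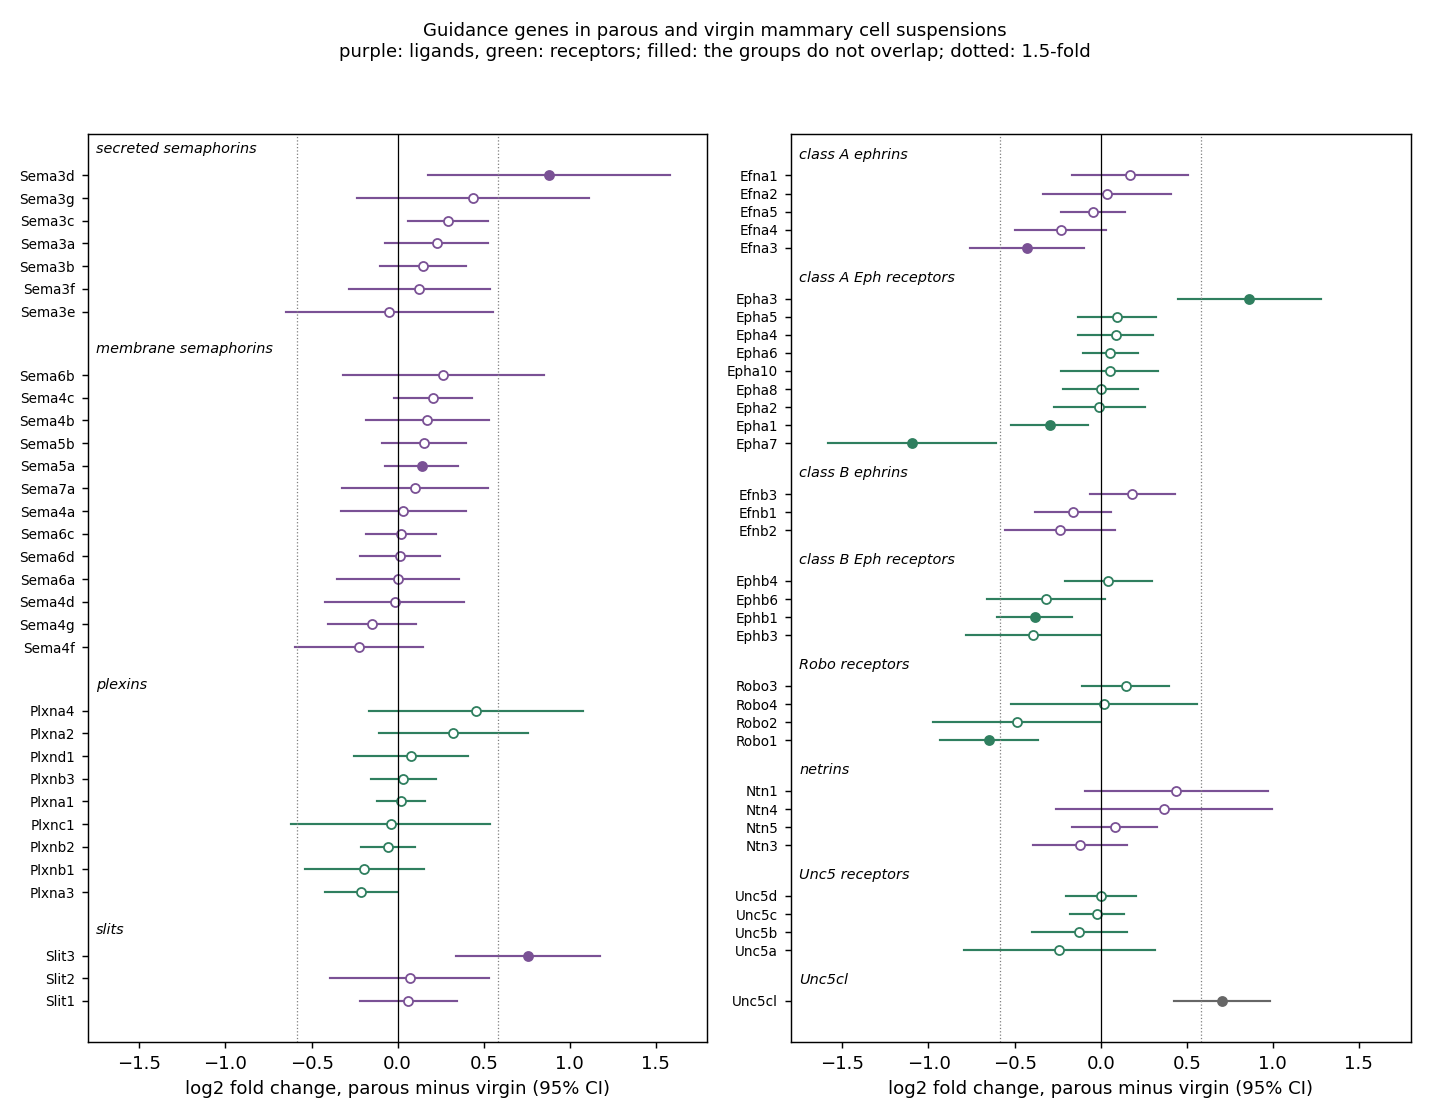
Log2 fold change (x axis, parous minus virgin) of each of the 66 guidance genes by class (y axis), with bars for the 95% interval of limma (n = 4 arrays per group), ligands in purple, receptors in green, filled points where the groups do not overlap and dotted lines at 1.5-fold. The values run between -1.10 for Epha7 and 0.88 for Sema3d, and most intervals lie within the 1.5-fold criterion.

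Among the slits and their receptors, 1 ligand was higher and 1 receptor lower in every parous array. Slit3, a secreted ligand, had 10.30, 10.36, 10.55 and 10.56 in the parous arrays, against 9.94, 9.37, 10.10 and 9.33 in the virgin arrays. Every parous array lay above every virgin array, and virgin replicates 2 and 4 were the lowest. The means were 10.44 ± 0.13 in parous and 9.69 ± 0.39 in virgin arrays (SD, n = 4), a log2 fold change of 0.76 ± 0.18 (SE) or 1.69-fold, with a 95% interval of 0.34 to 1.17 and an adjusted p of 0.17 in limma. In an exact 2-sided permutation test p was 0.029, the smallest that 4 arrays against 4 can give. Slit1 and Slit2 overlapped, with log2 fold changes of 0.06 and 0.07. Slit1 was dim, meaning that both its group means lay under the median of all values, 6.35.

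Robo1, a slit receptor of the mammary epithelium, had 7.73, 7.81, 7.78 and 7.81 in the parous arrays and 8.21, 8.54, 8.22 and 8.74 in the virgin arrays. The parous pools were almost alike and all lay below the virgin pools, by 0.40 between the nearest arrays. The means were 7.78 ± 0.040 in parous and 8.43 ± 0.26 in virgin arrays, so that Robo1 was 1.57-fold lower, with a log2 fold change of -0.65 ± 0.12, a 95% interval of -0.93 to -0.36 and an adjusted p of 0.094 in limma (exact p 0.029). Testing only probe sets above the median level gave an adjusted p of 0.048. Robo2 had 6.23, 6.21, 6.04 and 6.71 in parous and 6.42, 7.06, 6.48 and 7.17 in virgin arrays, which overlapped, with a log2 fold change of -0.49 and an adjusted p of 0.44, or -0.15 without virgin replicates 2 and 4. Robo4, found chiefly on endothelium, was at 0.02 with an interval of -0.52 to 0.56, and Robo3 was dim.

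Marker lists of other cells are given beside Robo1 and Slit3. The mean centred level of the basal and myoepithelial list (12 of 12 measured) was -0.25 to -0.08 in parous and 0.0062 to 0.27 in virgin arrays, and 1 of its markers, the keratin gene Krt17, passed the criteria as lower, with 5 of the 12 at an unadjusted p under 0.05, all lower. Within the virgin arrays the basal list was highest in replicate 3, at 0.27, where Robo1 was 8.22. The proliferation list was highest in virgin replicates 2 and 4, at 1.11 and 1.58, as Robo1 was. The part of these lists in the result for Robo1 was not tested. Beside Slit3, the pericyte list (8 of 8 measured, 0 passed) was -0.04 to 0.43 in parous and -0.68 to 0.17 in virgin arrays. The fibroblast list (10 of 10 measured, 0 passed) was -0.11 to 0.59 in parous and -0.50 to 0.08 in virgin arrays. At an unadjusted p under 0.05 in limma there were 2 of the 8 pericyte markers and 4 of the 10 fibroblast markers, all higher in parous arrays. The share of all probe sets was 11.4%. Within the virgin arrays the pericyte list was lowest in replicates 2 and 4, as Slit3 was. The fibroblast list was highest in virgin replicate 4, at 0.08, where Slit3 was lowest. None of the basal, pericyte and fibroblast markers was below the median level of the arrays. The part of the pericyte and fibroblast lists in the result for Slit3 was not tested. Without virgin replicates 2 and 4 the log2 fold change was 0.42 for Slit3, with an adjusted p of 0.36, and -0.43 for Robo1, with an adjusted p of 0.13.

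The promoters of Slit3 and Robo1, and of Epha7 and Epha3 described next, are shown as the start regions of the ligand and receptors whose groups separated in opposite directions. Each is a 300-base RefSeq window around the gene start on the GRCm38.p6 build, read along the gene's strand. Capitals mark the letters GGGCGG (a GC box) and CCAAT on either strand, and TATAAA and CACGTG were searched likewise.
Slit3 promoter, chr11:35121206-35121505 (+): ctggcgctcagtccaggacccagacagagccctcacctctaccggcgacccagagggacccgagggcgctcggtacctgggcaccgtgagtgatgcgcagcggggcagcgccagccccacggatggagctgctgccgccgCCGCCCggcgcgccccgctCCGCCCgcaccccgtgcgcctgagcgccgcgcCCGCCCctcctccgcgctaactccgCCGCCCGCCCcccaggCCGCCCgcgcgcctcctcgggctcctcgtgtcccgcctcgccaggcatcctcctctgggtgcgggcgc
Robo1 promoter, chr16:72662899-72663198 (+): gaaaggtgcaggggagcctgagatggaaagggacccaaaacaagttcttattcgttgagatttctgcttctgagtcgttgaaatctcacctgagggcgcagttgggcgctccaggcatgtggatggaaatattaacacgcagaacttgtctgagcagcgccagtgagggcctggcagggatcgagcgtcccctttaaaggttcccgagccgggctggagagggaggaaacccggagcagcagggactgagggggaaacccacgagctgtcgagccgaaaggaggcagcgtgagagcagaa
Epha7 promoter, chr4:28812881-28813180 (+): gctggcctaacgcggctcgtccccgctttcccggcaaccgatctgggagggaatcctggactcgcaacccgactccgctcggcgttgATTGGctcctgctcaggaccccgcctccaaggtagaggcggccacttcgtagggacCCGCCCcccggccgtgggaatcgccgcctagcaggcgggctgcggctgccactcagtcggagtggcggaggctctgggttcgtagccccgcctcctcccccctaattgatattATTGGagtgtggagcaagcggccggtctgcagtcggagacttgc
Epha3 promoter, chr16:63864126-63864425 (-): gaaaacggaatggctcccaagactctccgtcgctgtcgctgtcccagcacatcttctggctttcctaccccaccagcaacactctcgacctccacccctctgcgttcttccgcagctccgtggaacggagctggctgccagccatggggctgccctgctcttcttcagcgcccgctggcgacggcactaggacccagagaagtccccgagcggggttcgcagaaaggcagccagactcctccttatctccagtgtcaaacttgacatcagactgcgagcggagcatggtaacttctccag
The Slit3 window had 41 CpG sites, more than 96.5% of the 32851 promoters searched, and 6 GC boxes, a pair of which shares bases. The Epha7 window had 28 CpG sites, 1 GC box and CCAAT in 2 places. The Robo1 and Epha3 windows had 15 and 18 CpG sites and none of the 4 motifs. GGGCGG is found in 35.7% of all these promoters and CCAAT in 37.4%, and TATAAA (13.6%) and CACGTG (7.15%) were in none of the 4 windows. The matches are letters only, and no binding or methylation was measured here.

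Among the class A Eph receptors, 0 of 9 passed, and Epha7 and Epha3 lay furthest from 0, in opposite directions. Epha7 had 6.37, 6.57, 6.25 and 6.51 in the parous arrays, against 7.38, 7.98, 6.93 and 7.80 in the virgin arrays. The groups did not overlap, and virgin replicate 3 was nearest to the parous arrays. The means were 6.43 ± 0.14 in parous and 7.52 ± 0.47 in virgin arrays, so that Epha7 was 2.14-fold lower, the widest difference of the 66 genes, with a log2 fold change of -1.10 ± 0.21, an interval of -1.59 to -0.61 and an adjusted p of 0.097 in limma (exact p 0.029). Without virgin replicate 3, Epha7 passed at -1.30 and an adjusted p of 0.015. Leaving out any other single array gave an adjusted p of 0.15 to 0.30 in limma. Epha7 was at -0.73 without virgin replicates 2 and 4, with an adjusted p of 0.22.

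Epha3, which binds the same class of ephrins, lay the other way. Its values were 6.74, 7.05, 7.18 and 7.24 in the parous arrays and 6.30, 5.94, 6.63 and 5.88 in the virgin arrays, with every parous array above every virgin array, though by only 0.11 between the nearest. The means were 7.05 ± 0.22 in parous and 6.19 ± 0.35 in virgin arrays, a log2 fold change of 0.86 ± 0.18 or 1.82-fold, with an interval of 0.45 to 1.28 and an adjusted p of 0.12 (limma). Without virgin replicate 3, the virgin array nearest to the parous arrays, Epha3 passed at 1.01 and an adjusted p of 0.046. Leaving out any other single array gave an adjusted p of 0.15 to 0.34 in limma. Without virgin replicates 2 and 4 Epha3 was at 0.59, with an adjusted p of 0.41. Epha1 had 7.56, 7.57, 7.52 and 7.52 in parous and 7.79, 8.00, 7.60 and 7.97 in virgin arrays, without overlap and with a log2 fold change of -0.30 (adjusted p = 0.30, limma), or -0.15 without virgin replicates 2 and 4. The remaining class A receptors lay between -0.0068 and 0.09, among them Epha2, a receptor of epithelial cells, at -0.0068.

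The choice held 4 class B receptors, and Ephb2 was not among them. Of these 4, 0 passed, 2 were at an unadjusted p under 0.05 and 3 had a log2 fold change below 0, with a median of -0.35. Ephb1 had 5.93, 6.26, 6.07 and 5.92 in parous arrays, against 6.45, 6.39, 6.36 and 6.53 in virgin arrays, without overlap. Its log2 fold change was -0.38 ± 0.095, with an adjusted p of 0.18 in limma, but a second, dimmer probe set of Ephb1 gave -0.0077. Ephb3 had 9.48, 9.45, 8.96 and 9.23 in parous and 9.93, 9.92, 9.39 and 9.45 in virgin arrays, which overlapped (log2 fold change -0.39, adjusted p = 0.43 in limma). Ephb6, whose kinase is inactive, was at -0.32 over all arrays and at -0.55 without virgin replicates 2 and 4. Ephb4, the ephrin-B2 receptor, was at 0.05.

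Of the 8 ephrins 0 passed and 1 was at an unadjusted p under 0.05. This was Efna3, a membrane-anchored ligand of class A receptors, which had 6.09, 6.11, 5.93 and 5.94 in parous arrays and 6.23, 6.61, 6.16 and 6.77 in virgin arrays, without overlap, by 0.05 between the nearest, with a log2 fold change of -0.43 and an adjusted p of 0.31 (limma). It was at -0.18 without virgin replicates 2 and 4. Efnb2, the ligand of Ephb4, had 9.27, 9.54, 9.27 and 8.99 in parous and 9.60, 9.72, 9.25 and 9.43 in virgin arrays, which overlapped, with a log2 fold change of -0.24. The other ephrins lay between -0.23 and 0.18.

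Of the 7 secreted semaphorins 0 passed, 2 were at an unadjusted p under 0.05 and 6 had a log2 fold change above 0, with a median of 0.23. Without virgin replicates 2 and 4, 5 of 7 were above 0, with Sema3g at -0.0026 and Sema3f at -0.15. Sema3d had 7.95, 8.02, 7.77 and 8.06 in the parous arrays and 7.63, 6.78, 7.68 and 6.21 in the virgin arrays. The groups did not overlap, and virgin replicates 2 and 4 were well below the other virgin arrays. The log2 fold change was 0.88 ± 0.31, with an interval of 0.17 to 1.58 and an adjusted p of 0.33 in limma. It was 0.30 without virgin replicates 2 and 4. Sema3c, which acts on vessels and epithelium, had 9.76, 9.97, 9.62 and 9.75 in parous arrays, against 9.55, 9.37, 9.37 and 9.64 in virgin arrays, and parous replicate 3 lay just below virgin replicate 4. Its log2 fold change was 0.29 ± 0.10 over all arrays (adjusted p = 0.32, limma) and 0.31 without virgin replicates 2 and 4, so the value did not rest on those arrays. The endothelial list, 14 of 14 markers measured and 0 passed, had a mean centred level of -0.14 to 0.29 in parous and -0.65 to 0.35 in virgin arrays, with virgin replicate 4 the lowest. Its part in these results was not tested.

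Of the membrane semaphorins, 10 of 13 had a log2 fold change above 0, with a median of 0.03, but 3 of 13 did without virgin replicates 2 and 4, where the median was -0.066. Over all arrays 11 of 13 intervals lay within the 1.5-fold criterion. Sema6b was the furthest, at 8.93, 9.15, 9.08 and 8.61 in parous and 9.24, 8.55, 8.93 and 7.99 in virgin arrays, with a log2 fold change of 0.27 that turned to -0.14 without virgin replicates 2 and 4. Sema5a was above in every parous array, but by 0.0017 between the nearest. Sema4d, a semaphorin of lymphocytes, was at -0.02 by its main probe set, while its second probe set had 6.98, 6.75, 6.92 and 6.96 in parous arrays, against 6.65, 6.42, 6.62 and 6.69 in virgin arrays, without overlap (log2 fold change 0.31, adjusted p = 0.24, limma).

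Of the plexins, which carry the semaphorin signal, 5 were above 0 and 4 below, or 4 above and 5 below without virgin replicates 2 and 4. Plxna4 had 8.59, 8.59, 8.72 and 8.64 in parous and 8.85, 8.02, 8.46 and 7.38 in virgin arrays, and its log2 fold change of 0.46 rested on virgin replicates 2 and 4, without which it was -0.019. Plxna3 had 7.93, 7.61, 7.82 and 7.68 in parous arrays and 8.06, 8.03, 7.90 and 7.89 in virgin arrays, at -0.21 with an adjusted p of 0.43 (limma). Plxna1 was the most precisely measured of the 66, at 0.02 with an interval of -0.12 to 0.16. Plxnd1, the plexin of endothelial cells, was at 0.08.

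Netrin 1 (Ntn1) had 10.56, 10.48, 10.61 and 10.47 in parous arrays and 10.53, 9.92, 10.50 and 9.41 in virgin arrays. Virgin replicates 1 and 3 lay among the parous arrays, and the log2 fold change of 0.44 was 0.02 without the other virgin arrays. Ntn4 followed the same arrays, at 0.37, or -0.12 without them. The Unc5 receptors were near 0, and 3 of 4 were dim. Unc5a had 5.61, 5.82, 5.96 and 6.19 in parous and 5.68, 6.03, 5.97 and 6.85 in virgin arrays, with a log2 fold change of -0.24, or 0.0011 without virgin replicate 4. Unc5cl had 7.95, 7.78, 7.70 and 7.82 in the parous arrays, against 7.33, 7.15, 7.16 and 6.78 in the virgin arrays. The groups were 0.36 apart at the nearest, with means of 7.81 ± 0.11 in parous and 7.10 ± 0.23 in virgin arrays, a log2 fold change of 0.71 ± 0.12 and an adjusted p of 0.068 in limma, the lowest of the 66. It passed with array weights (adjusted p = 0.040), without dim probe sets (0.034) and with only probe sets naming 1 gene (0.041), and it was at 0.56 without virgin replicates 2 and 4.

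**Figure D2:**
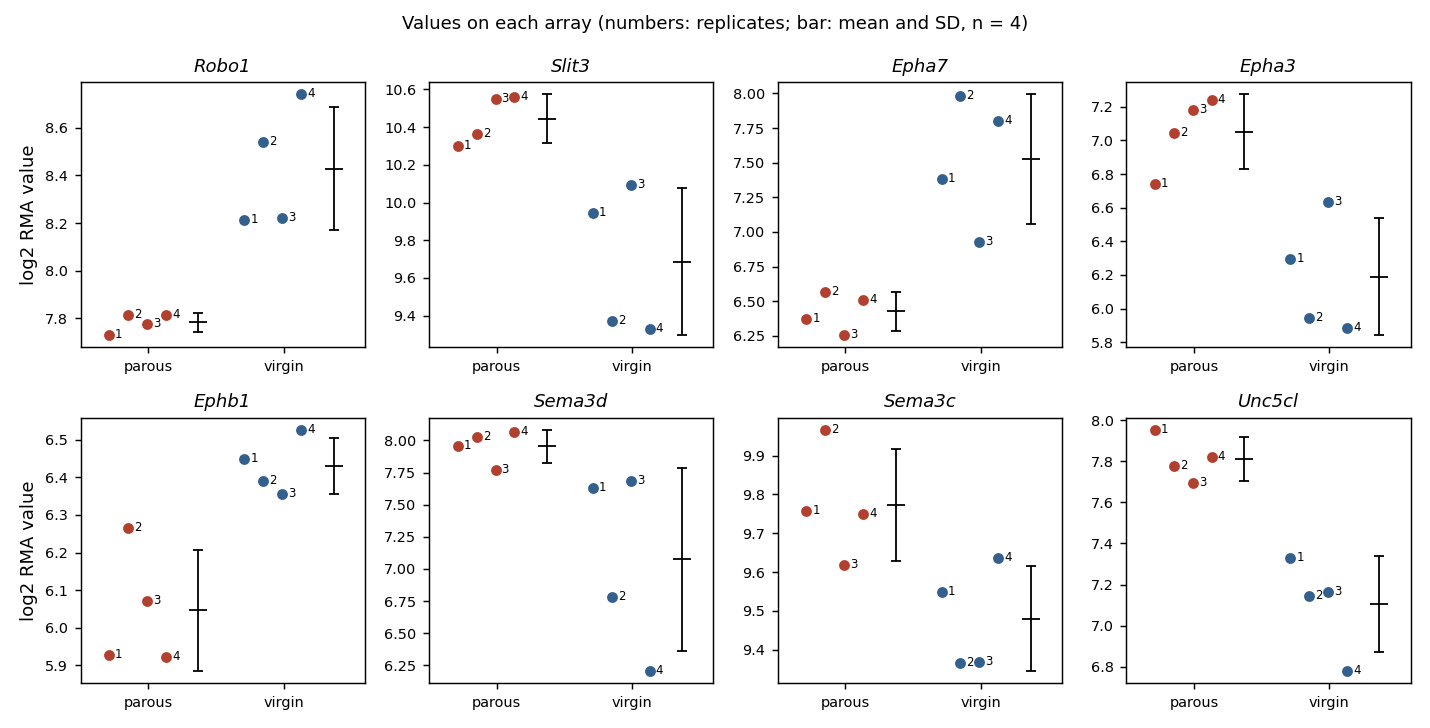
Log2 RMA value (y axis) of 8 guidance genes in each parous and virgin array, with replicate numbers, and bars for the mean and SD (n = 4). Parous and virgin arrays do not overlap for any of them but Sema3c, whose parous replicate 3 at 9.62 lies below virgin replicate 4 at 9.64.

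**Figure D3:**
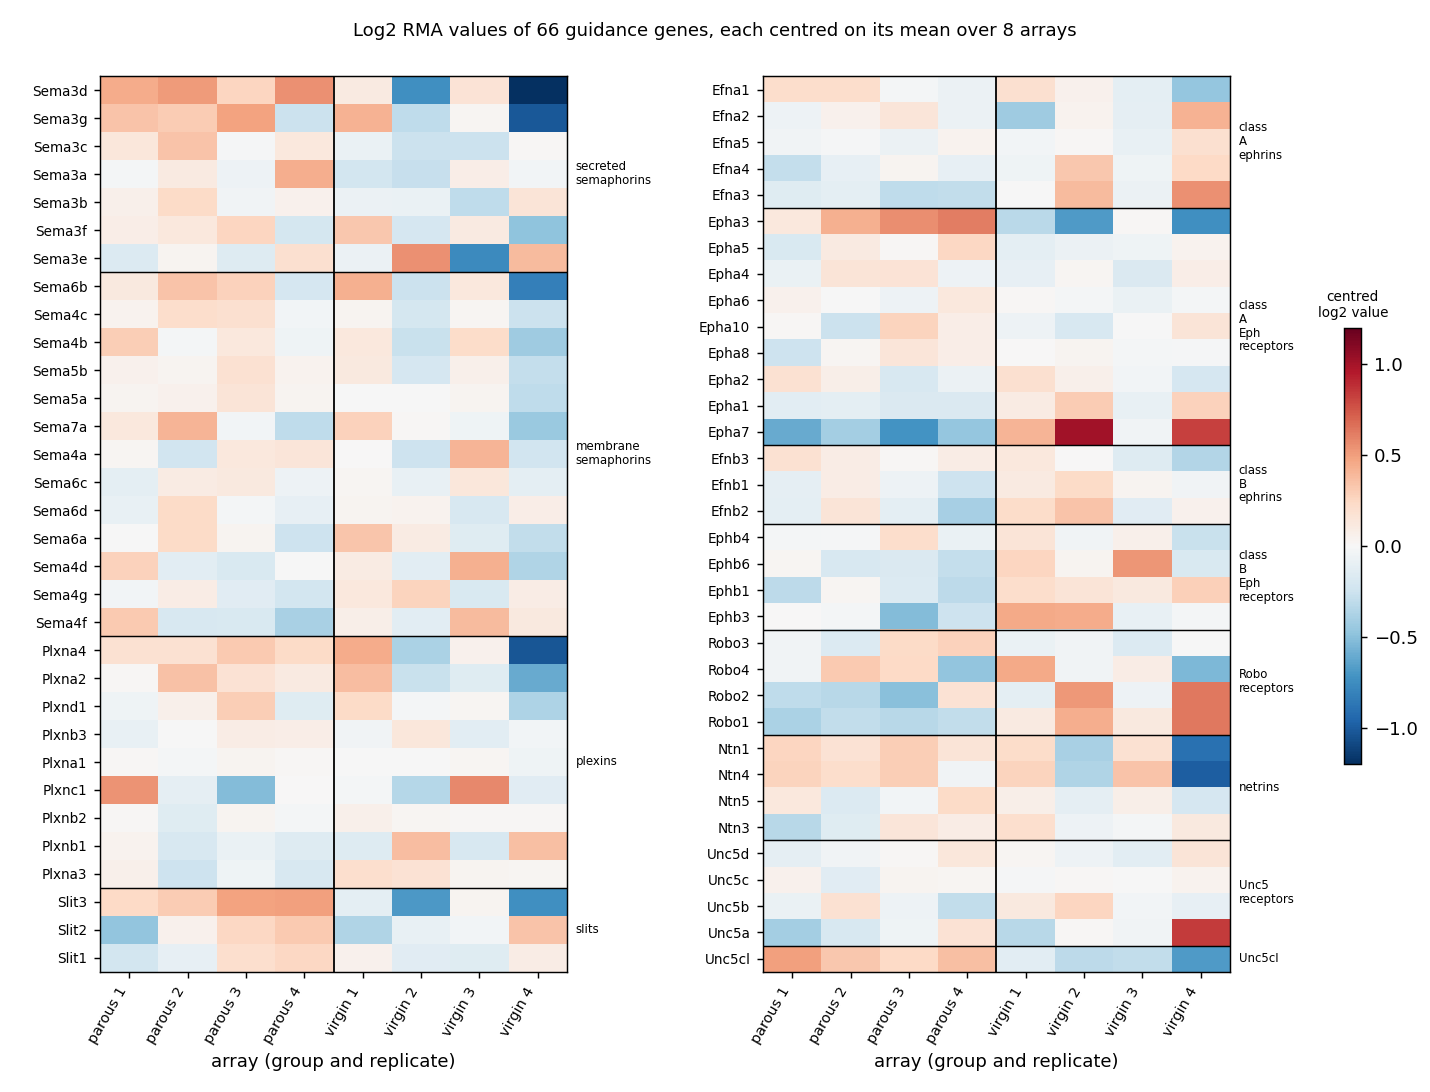
Log2 RMA values of the 66 guidance genes, each centred on its mean over 8 arrays, with arrays as columns and genes as rows by class, red above and blue below the mean. Virgin replicate 4 was the lowest virgin array for 32 of the 66 genes. Among these, Sema3d, Plxna4, Sema3g, Ntn4 and Ntn1 lay far below their means there.

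The spread was wider among virgin than among parous arrays for 43 of the 66 genes, with a median SD of 0.15 in parous and 0.21 in virgin arrays. Without virgin replicates 2 and 4, 46 of 66 genes kept their direction, and 9 were at an unadjusted p under 0.05, 5 higher and 4 lower, against 7.55% of all probe sets.

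**Figure D4:**
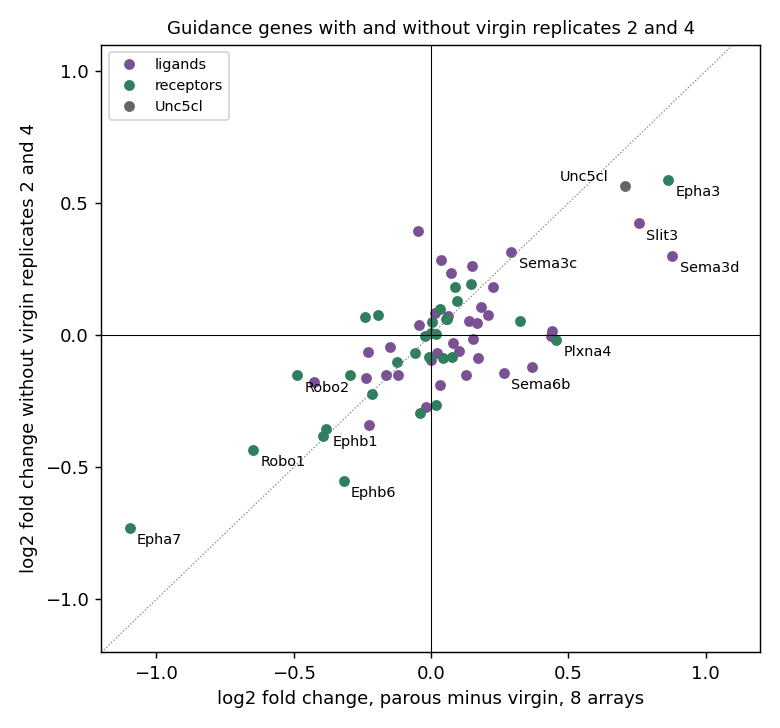
Log2 fold change (parous minus virgin) of each guidance gene over 8 arrays (x axis) and without virgin replicates 2 and 4 (y axis), with equal values on the dotted line. Epha7 at -0.73 and Epha3 at 0.59 keep their side on the y axis, while Plxna4 at -0.019 lies near 0.

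Partners of these receptors were taken from lists chosen by role, with earlier results of these data known. Of 67 measured, 10 were dim and 0 passed. At an unadjusted p under 0.05 in limma there were 26 (38.8%), 11 higher and 15 lower. This compares with 11.4% of all probe sets, 14% of all genes and 19.7% of all genes above the median level. The last share leaves out dim genes. The groups did not overlap for 18 (26.9%), against 7.6%, 9.56% and 13.2% in the same order. Since the lists were not blind to the data, these shares are description only. Srgap3, which acts downstream of Robo receptors inside the cell, had 9.01, 8.93, 8.97 and 9.09 in the parous arrays, against 8.49, 8.62, 8.36 and 8.21 in the virgin arrays. It lay above in every parous array, at a log2 fold change of 0.58 ± 0.098 (adjusted p = 0.063, limma), and at 0.58 also without virgin replicates 2 and 4. Other partners that did not overlap were higher, such as Islr2 (0.86), Flrt2 (0.87), a ligand of Unc5 receptors, Rgma (0.45), a neogenin ligand, and Ntng1 (0.32), or lower, such as Tmeff1 (-0.69), the small GTPase Rras2 (-0.59), the scaffold Grip1 (-0.48), Dpysl5 of the collapsin response mediators (-0.44), Gipc1 (-0.43) and Flrt3 (-0.33), with adjusted p between 0.15 and 0.34 in limma. Leaving out virgin replicates 2 and 4, Islr2 was at 0.48, Flrt2 at 0.49, Tmeff1 at -0.34 and Gipc1 at -0.16, while the other partners just named kept their direction and moved by less than 1.5 times. Neuropilins 1 and 2 (Nrp1 and Nrp2), which bind secreted semaphorins, overlapped between the groups, at 0.26 and 0.28 (adjusted p = 0.65 and 0.75, limma). Nrp1 had 10.31 to 10.72 in parous arrays and 10.60, 10.16, 10.39 and 9.80 in virgin arrays. Nrp2 had 10.03 to 10.26 in parous arrays and 10.58, 9.78, 10.04 and 9.15 in virgin arrays. For both, virgin replicates 2 and 4 were the lowest, and virgin replicates 1 and 3 lay within or above the parous range. The netrin receptor Dcc, which was dim, was at -0.02.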

How the data were processed

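Total mammary cell suspensions of 4 parous and 4 age-matched virgin pools were measured on 8 Affymetrix Mouse Gene 1.0 ST arrays. Deposited values are on the log2 scale and were made by the authors by RMA in the affy package of R, through background correction, quantile normalization and summary to 1 value per probe set, with no version stated. Normalization sets every array to like quantiles, so levels are relative to the other transcripts of that array. The number of arrays limits the precision.

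Of 34760 probe sets, 21640 named 1 gene in the annotation of the array, 1321 several and 11799 none here. Members and lists were chosen with earlier results of these data known. Groups were compared in R 4.3.3 with limma 3.58.1 (lmFit and eBayes, 2-sided). P-values were adjusted by Benjamini-Hochberg across the 34760 probe sets, and the call needed an adjusted p under 0.05, a fold change over 1.5 and a mean log2 value over 2, as in the methods of the study. Exact 2-sided permutation tests were added for single genes. Values are given on every array for members at an unadjusted p under 0.05, those without overlap and over 0.4 on the log2 scale, and the largest difference of each class. Sema4d's second probe set, Ephb6, and Dscam were chosen after their values were seen. Alternatives included a replicate block, each array left out in turn, virgin replicates 2 and 4 left out together, array weights, treat, other filters and the unadjusted p. The procedure was tested on simulated data. Promoters of 57 of the 66 members were matched by symbol.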

Additional observations from a re-analysis of the deposited data

Results flagged for a closer look

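Of 132 groups of 4 arrays, 5 had an array whose gap to the nearest other array took up more of the group's range than Dixon's critical value at 95%, against about 5% of groups by chance. In Sema5a they were parous replicate 3, at 9.19 with the nearest array at 9.08, and virgin replicate 4, at 8.73 with the nearest at 9.03. In Sema5b it was parous replicate 3, at 6.66 with the nearest at 6.53. Sema6d had virgin replicate 3 at 9.60, with the nearest at 9.82, and Unc5c had parous replicate 2 at 5.90, with the nearest at 6.06. None of these genes had an unadjusted p under 0.05.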

How the results depend on the processing

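Over all probe sets, 138 passed (83 higher, 55 lower), 49 with the replicate block, 26 with treat, 1030 at an unadjusted p with the fold criterion, and 42 to 179 when 1 array was left out. Of the guidance genes 0 passed, but 0 to 2 did when 1 array was left out, 1 with array weights, 2 without dim probe sets, 1 with only probe sets naming 1 gene, and 6 at an unadjusted p with the fold criterion. Of the partners, 1 passed without virgin replicates 2 and 4, and 5 at an unadjusted p with the fold criterion. The median log2 fold change of the ligands was 0.08, 0.04 to 0.12 when 1 array was left out and -0.015 without virgin replicates 2 and 4, and that of the receptors was -0.0037, -0.036 to 0.0068 and -0.043. Unc5a was at -0.39 to 0.0011 when 1 array was left out, above 0 without virgin replicate 4, and at 0.069 without virgin replicates 2 and 4, where Sema6b was at -0.14 and Plxna4 at -0.019. The cause was not tested. The other 481 values of named genes kept their direction and side of the threshold and 6 moved past it. Unc5a and Grip1 have no value without dim probe sets.

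The study was run as 4 experiments with 5 mice of each group, but no source used here says that a replicate number marks an experiment, so the arrays were not treated as paired. Deviations of same-numbered arrays correlated at 0.12, 0.18, -0.057 and 0.31, above 0.1 for 3 of 4 pairs. Those of differently numbered arrays correlated at -0.26 to 0.19. The highest value of all pairs was that of parous and virgin replicate 4, while parous replicate 1 correlated best with virgin replicate 3, at 0.19. With the replicate block 0 guidance genes passed, and 14 were at an unadjusted p under 0.05, against 12.8% of all probe sets.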

Other observations

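Dscam, a cell adhesion molecule that also binds netrin, was picked out after its values were seen. It had 5.71, 4.98, 4.99 and 5.11 in the parous arrays, against 7.86, 6.49, 7.99 and 5.25 in the virgin arrays. Virgin replicate 4 lay among the parous arrays and the other virgin arrays above them. The log2 fold change was -1.70 ± 0.57 with an adjusted p of 0.31 in limma. Without virgin replicates 2 and 4 it was -2.73, with an adjusted p of 0.014, and it was the 1 partner that passed there.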
